A study of Homo sapiens with 70 samples.

Results

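Mitochondrial ribosomal protein genes were examined in 2 human hepatocellular carcinoma lines, Hep3B and Huh7, after 24 h with drug. The members are the genes whose symbols begin with MRPL or MRPS and a digit, each taken at the transcript that the authors marked as representative of its gene. The rule found 79 of 20090 genes, of which 76 code for protein. Of the protein genes, 49 belong to the large subunit of the mitochondrial ribosome and 26 to the small subunit. MRPS30 and MRPS18A were counted with the large subunit, where their proteins sit despite their names. MRPS36 was kept by its name, although its protein belongs to the 2-oxoglutarate dehydrogenase complex. The other 3 members are an antisense RNA, MRPL23-AS1, and the pseudogenes MRPL42P5 and MRPL45P2.

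Mitochondria carry their own ribosomes, which translate the few proteins that mitochondrial DNA encodes, all of them parts of the machinery of oxidative phosphorylation. The RNA of these ribosomes comes from mitochondrial DNA, but every ribosomal protein is encoded in the nucleus, made in the cytosol and imported. Part of the set has bacterial counterparts and the rest was gained in the mitochondrial lineage. Hepatocytes are rich in mitochondria and depend on oxidative phosphorylation.

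The groups were Hep3B with both drugs, with 5 µM GW3965, with 2 µM sorafenib and with the vehicle DMSO, at 9 libraries each. The Huh7 groups were both drugs with 9 libraries, labelled GW3965 with 8, labelled sorafenib with 9, and DMSO with 8, at the same doses and time. GW3965 is an agonist of the liver X receptors (LXR), which switch on cholesterol efflux and lipid synthesis genes, and sorafenib inhibits RAF and receptor tyrosine kinases. RNA selected for poly-A tails was sequenced, and each drug group was compared with the DMSO group of its own line. Both are established lines, each from a single tumour. The labels number the libraries without saying whether they came from separate cultures, so the p-values may measure technical spread.

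The values were the authors' deposited tables of edgeR comparisons, 1 for each drug group, which hold a mean log2 CPM (read counts scaled to library size), a log2 fold change of drug over DMSO, a p-value and an FDR. A gene was called when that FDR was below 0.05 and its mean was at least 2 CPM. Values of single libraries and their depths were not used here, so the spread between replicates is known through the authors' p-values alone. A standard error (SE) below is approximate, the size of a log2 fold change over the normal score of its p-value. Where p was above 0.5 it was set to the median at that expression level. Only in the tests of differences was it also raised to at least that median. All 9 hepatocyte and hepatoma markers were at or above 2 CPM in both lines, and among 6 markers of other cells EPCAM and CD68 were in Hep3B, and these and COL1A1 in Huh7. The LXR target ABCG1 had log2 fold changes in the authors' deposited tables of 5.99 with GW3965 and 0.59 with sorafenib in Hep3B, but 0.75 in the Huh7 group labelled GW3965 and 3.82 in the one labelled sorafenib. DUSP6, a target of the ERK pathway, had 0.33 with GW3965 and -2.40 with sorafenib in Hep3B, but -1.70 and -0.02 in the Huh7 groups labelled GW3965 and sorafenib, in the authors' deposited tables. Both genes go against the labels of the single-drug groups of Huh7, so these are named by their labels throughout and no direction for a drug is drawn from them.

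Mitochondrial ribosomal protein transcripts were of moderate abundance in both lines. The authors' deposited tables of both drugs against DMSO gave the 75 ribosomal proteins a median of 33.8 CPM in Hep3B, between 4.17 CPM for MRPS31 and 116 CPM for MRPL11, a protein of the stalk base where translation factors dock. In Huh7 that median was 28.1 CPM, between 6.60 CPM for MRPL36 and 157 CPM for MRPL11, in the authors' deposited table. Per kilobase of transcript, by lengths of GENCODE 29, the authors' deposited levels of the protein-coding members ran in Hep3B from 2.85 CPM for MRPS31 to 98.4 CPM for MRPS24, with a median of 25.4 CPM. The same measure ran in Huh7 from 3.06 CPM for MRPL42 to 103 CPM for MRPL11, with a median of 21.7 CPM, again from the authors' deposited levels. These lengths may differ from the transcripts counted. MRPL42 was lowest in Huh7 at a listed length of 15582 bases, while its mean there was 47.7 CPM, above the median of 28.1 CPM. A nonzero count in every library was listed for 77 of the 79 members.

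With both drugs the family split in Hep3B and leaned to lower levels in Huh7. Of 77 members at or above 2 CPM in Hep3B, the authors' deposited table called 22 higher and 25 lower by edgeR's FDR, that is 28.6% and 32.5%, against 36.7% and 35.4% of all genes at that level. In Huh7 the authors' deposited table called 11 of 76 members higher and 37 lower, 14.5% and 48.7%, against 35.5% and 26.1% of all genes. The share of members called higher was below that of all genes in both lines, and the share called lower was above it in Huh7. The median log2 fold change in the authors' deposited tables was 0.03 for the members and 0.01 for all genes in Hep3B, and -0.20 and 0.07 in Huh7. A change of at least 2-fold in either direction was found for 1 of 77 members in Hep3B and 0 of 76 in Huh7. Among all genes at that level it was found for 1670 of 11648 and 1099 of 11491, in the authors' deposited tables.

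Calls in the same direction in both lines were found among the members and among all genes. The authors' deposited tables called 9 protein-coding members higher in both lines, which is 40.9% of the 22 higher in Hep3B and 81.8% of the 11 higher in Huh7, against 64.6% and 66.1% for all genes at or above 2 CPM in both. These were MRPL2, MRPL10, MRPL37, MRPL45, MRPL48, MRPS10, MRPS18B, MRPS18C and MRPS35. Called lower in both were 20, or 83.3% of the 24 lower in Hep3B and 54.1% of the 37 lower in Huh7, against 52.5% and 72.7% for all genes, by the authors' deposited tables. As a share of the genes tested, 11.8% of protein-coding members and 23.5% of all genes were called higher in both lines, and 26.3% and 18.8% lower in both, by the authors' deposited tables. MRPS9, a small-subunit protein with a bacterial counterpart, was called higher in Hep3B and lower in Huh7, and no member had the reverse pair of calls. For 12 protein-coding members neither line gave a call. Shares of all genes with opposite calls, or with no call in either line, were not computed.

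The promoters of 4 of these genes are printed because they stand at the ends of the shared response, with the highest and the lowest mean of the log2 fold changes of both lines among members with 1 promoter entry and the same call in both. MRPS18B and MRPL45 had mean log2 fold changes of 0.76 and 0.49 over the authors' deposited tables of both lines, and MRPL16 and MRPL28 had -0.70 and -0.65. Each sequence runs from 250 bases before to 50 bases after the start that RefSeq gives on GRCh38.p14, 5′ to 3′ on the strand of the gene, and capitals mark a match to 1 of 4 searched motifs on either strand. In MRPS18B the capitals mark GCATGCGC (NRF1) and AAGATGGCG (YY1). In MRPL16 and MRPL28 they mark the reverse complement of CCGGAAG (ETS family, which includes GABP). MRPL45 held no exact match to the 4 searched strings. Variants of these strings were not searched, so this does not show that such sites are absent.
MRPS18B, chr6:30617590-30617889, plus strand: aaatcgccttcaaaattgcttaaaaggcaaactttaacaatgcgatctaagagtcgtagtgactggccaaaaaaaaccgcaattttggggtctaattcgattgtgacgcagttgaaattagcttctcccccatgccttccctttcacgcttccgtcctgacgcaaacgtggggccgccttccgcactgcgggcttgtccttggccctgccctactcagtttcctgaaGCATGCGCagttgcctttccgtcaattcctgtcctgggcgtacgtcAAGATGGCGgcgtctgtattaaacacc
MRPL45, chr17:38296918-38297217, plus strand: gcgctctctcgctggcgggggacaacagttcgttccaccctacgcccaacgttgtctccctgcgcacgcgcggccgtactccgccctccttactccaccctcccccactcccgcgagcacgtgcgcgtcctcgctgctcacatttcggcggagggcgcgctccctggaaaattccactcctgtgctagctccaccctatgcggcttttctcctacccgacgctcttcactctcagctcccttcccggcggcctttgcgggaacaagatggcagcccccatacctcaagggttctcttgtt
MRPL16, chr11:59810729-59811028, minus strand: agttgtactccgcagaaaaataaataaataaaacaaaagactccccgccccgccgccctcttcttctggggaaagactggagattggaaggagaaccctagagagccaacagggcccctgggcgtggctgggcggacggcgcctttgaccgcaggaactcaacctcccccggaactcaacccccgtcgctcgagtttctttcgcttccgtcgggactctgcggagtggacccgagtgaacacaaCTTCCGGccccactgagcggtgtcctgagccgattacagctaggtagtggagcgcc
MRPL28, chr16:370489-370788, minus strand: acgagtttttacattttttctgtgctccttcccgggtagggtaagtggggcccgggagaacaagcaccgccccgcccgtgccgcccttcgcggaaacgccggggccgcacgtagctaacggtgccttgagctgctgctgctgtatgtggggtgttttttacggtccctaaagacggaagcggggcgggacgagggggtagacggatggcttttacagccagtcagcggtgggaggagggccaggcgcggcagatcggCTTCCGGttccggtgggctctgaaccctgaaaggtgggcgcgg
MRPL2 and MRPL10 among the shared rises, and MRPL23 and MRPS28 among the shared falls, had no entry in the promoter table.

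Across the family, the ETS letters CCGGAAG stood in 38.6% of 83 promoters of 67 member genes, against 10.3% of all 35116 promoters in the table and 16.6% of the 13128 of expressed genes. AAGATGGCG stood in 15.7% of member promoters, against 1.75% of all and 3.53% of expressed ones, and GCATGCGC in 7.23%, against 3.05% and 4.70%. TGATGCAA, which the factor ATF4 binds, matched none of the 83 promoters, against 0.866% of all and 0.541% of expressed ones. Members called in either direction held the ETS letters. In Hep3B with both drugs the ETS letters were found for 6 of 19 higher members and 9 of 21 lower members with a promoter, and in Huh7 for 5 of 9 higher and 15 of 33 lower members. A match is a description of the sequence, not a site shown to be bound. Only these exact letters were searched, so the shares leave out variants of each motif.

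**Figure D1:**
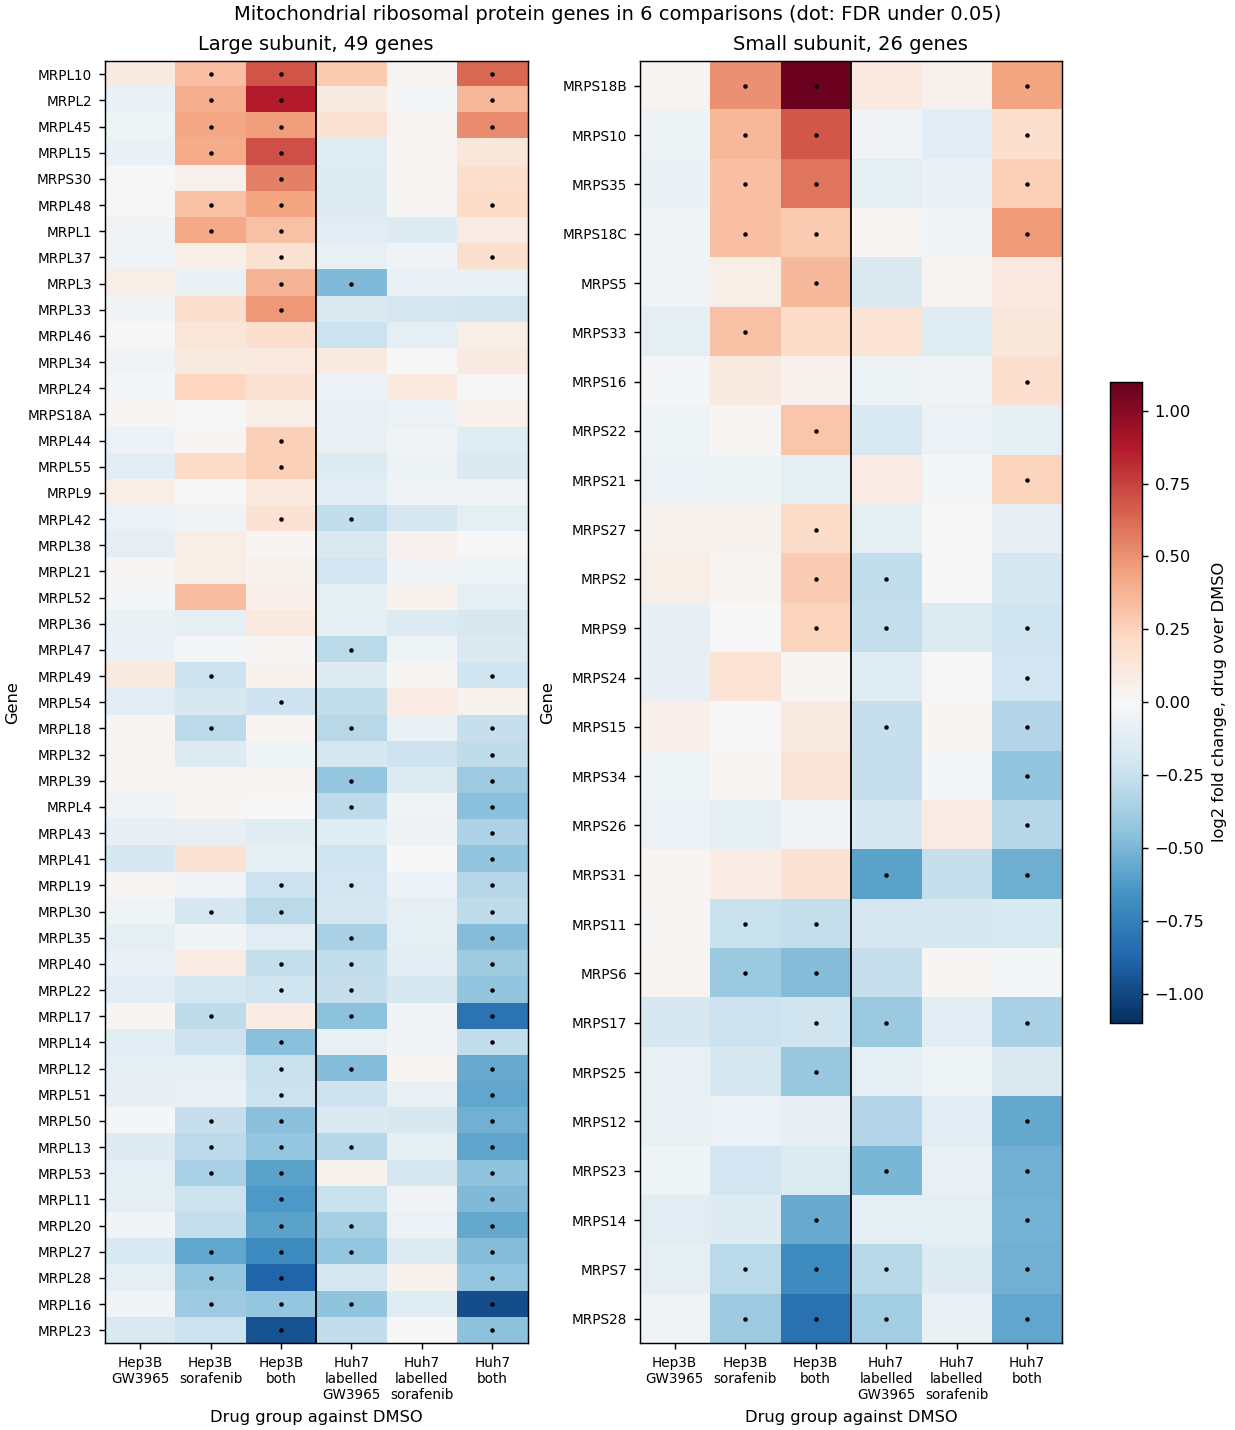
Log2 fold changes of drug over DMSO from the authors' deposited tables for the 75 ribosomal protein genes, 49 of the large subunit on the left and 26 of the small subunit on the right, ordered by the mean of the 2 both-drug columns; colours run from blue (lower) to red (higher), and a dot marks an FDR under 0.05. The columns of both drugs hold most dots, at both ends of the order, and the columns of Hep3B with GW3965 and of Huh7 labelled sorafenib hold none.

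In Hep3B with both drugs the largest rise belonged to MRPS18B, a small-subunit protein from a family of 3 mitochondrial relatives of bacterial S18. Its log2 fold change in the authors' deposited table was 1.08 (approximate SE 0.10), a 2.12-fold rise at a mean of 73.7 CPM, with an edgeR FDR of 3.87e-24. MRPL2, which lies near the peptidyl transferase centre, rose by 0.87 (SE 0.10; FDR 3.55e-18) in the authors' deposited table. MRPL15, a large-subunit protein with a bacterial counterpart, rose by 0.71, and MRPL10, the base of the stalk that carries MRPL12, by 0.69, by the authors' deposited table. MRPS10, a protein of the small-subunit head, rose by 0.68 with an edgeR FDR of 4.32e-24 in the authors' deposited table. The 5 highest members thus came from both subunits.

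The lowest member in Hep3B with both drugs was MRPL23, a protein at the exit of the peptide tunnel, with a log2 fold change in the authors' deposited table of -0.96 (SE 0.11; edgeR FDR 1.05e-17), or 0.514 of its DMSO level. MRPL28, a large-subunit protein with a bacterial counterpart, had -0.88 (SE 0.08; FDR 9.07e-25) in the authors' deposited table. MRPS28, the relative of bacterial S1, had -0.82, and MRPL27, which lies near the peptidyl transferase centre, had -0.69, in the authors' deposited table. MRPS7, a protein of the small-subunit head near the messenger RNA path, had -0.69 with an edgeR FDR of 1.28e-17 by the authors' deposited table. MRPL2 and MRPL27, both near the peptidyl transferase centre, were thus called in opposite directions.

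Huh7 with both drugs shared many of these genes in a different order. MRPL10 led the rises with a log2 fold change of 0.63 (SE 0.09; edgeR FDR 1.71e-10) in the authors' deposited table. MRPL45, which anchors the ribosome to the inner membrane, rose by 0.52, and MRPS18C by 0.47, by the authors' deposited table. MRPS18B rose by 0.43 and MRPL2 by 0.37 in the same comparison of the authors' deposited table. MRPL16, a large-subunit protein with a bacterial counterpart, was lowest with -0.98 (SE 0.13; FDR 3.83e-12), which is 0.507 of its DMSO level, in the authors' deposited table. MRPL17, found near the exit of the peptide tunnel, had -0.81 (SE 0.10; FDR 1.57e-15) in the authors' deposited table. MRPL13, MRPL51 and MRPS28 followed with -0.58, -0.57 and -0.57 in the authors' deposited table.

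**Figure D2:**
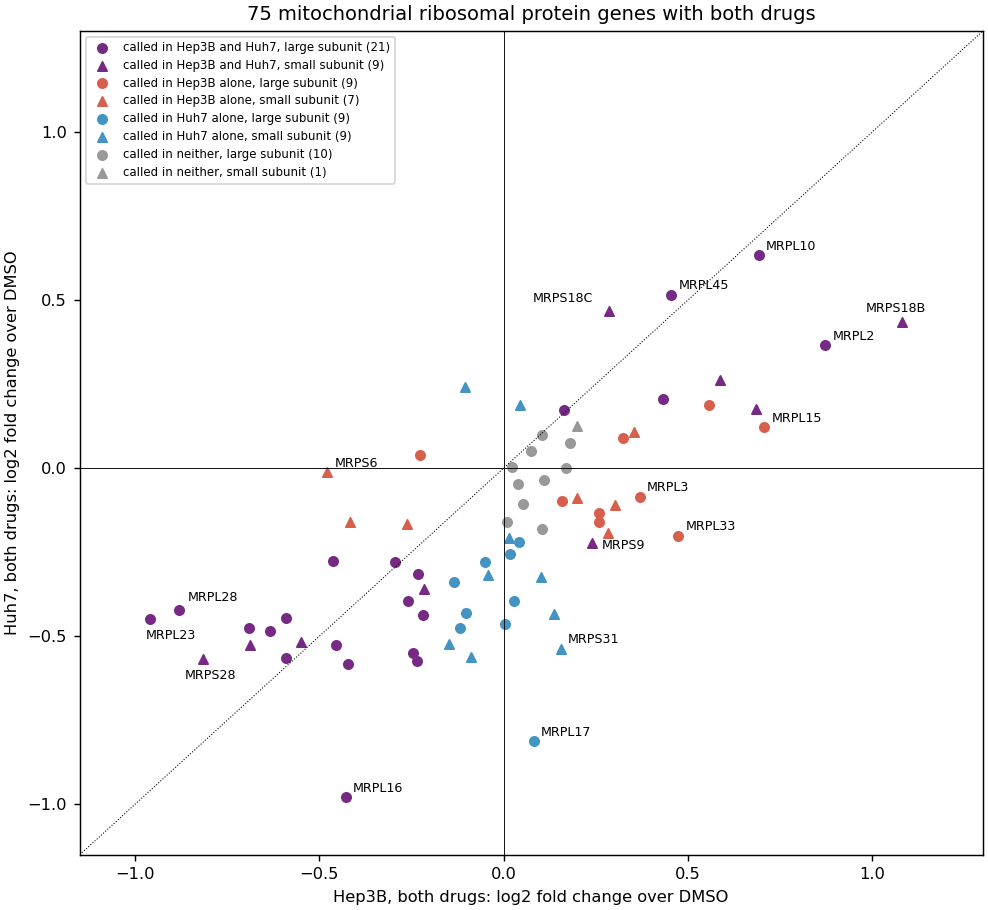
Responses of 75 ribosomal protein genes to both drugs, as log2 fold changes over DMSO from the authors' deposited tables, Hep3B on the horizontal axis and Huh7 on the vertical axis; circles are large-subunit and triangles small-subunit genes, colours give the lines in which a gene was called at FDR under 0.05, and the dotted line marks equal changes. MRPL10 and MRPL45 lie near the dotted line, while MRPL17, MRPL33 and MRPS31 lie well below it.

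The responses of the lines to both drugs were then compared directly, with an approximate test of the difference of the log2 fold changes that was adjusted over all genes. The log2 fold change was higher in Hep3B than in Huh7 for 26 of 77 members and lower for 5, against 17.9% and 26.3% of all genes. Here the minimum applied to the mean log2 CPM over both lines. MRPL23-AS1, under 2 CPM in Huh7, was thus tested and is among the 5. The median difference, Hep3B less Huh7, was 0.22 for the members and -0.05 for all genes, and 56 of the 77 members lay above 0. Of the positive differences, that of MRPL17 was the largest, at 0.89 (95% interval 0.64 to 1.15; adjusted p = 1.22e-10), since it had 0.08 in Hep3B without a call and -0.81 in Huh7 in the authors' deposited tables. MRPS31, a small-subunit protein of the mitochondrial lineage, differed by 0.69 (0.32 to 1.06; adjusted p = 0.000985), with 0.16 in Hep3B without a call and -0.54 in Huh7 in the authors' deposited tables. MRPL33, a small large-subunit protein with a bacterial counterpart, differed by 0.68 (0.32 to 1.03), with a rise of 0.47 in Hep3B and -0.20 in Huh7 without a call in the authors' deposited tables. MRPS18B rose in both lines but by 0.65 more in Hep3B (0.38 to 0.92; adjusted p = 1.77e-05).

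In the other direction stood MRPL23-AS1, MRPL23 and MRPS6, with differences of -0.91, -0.51 and -0.47. In Huh7 MRPL23-AS1 was at 1.59 CPM, under the minimum, and it passed the filter through its level in Hep3B. MRPS6, a small-subunit protein with a bacterial counterpart, fell by 0.48 in Hep3B and had -0.01 without a call in Huh7, in the authors' deposited tables. MRPL28 differed by -0.46 (-0.71 to -0.20) and MRPS21 by -0.35 (-0.61 to -0.08). MRPS12, a protein of the decoding centre, differed by 0.47 (0.20 to 0.74; adjusted p = 0.00215), with -0.09 in Hep3B without a call and a called -0.56 in Huh7 in the authors' deposited tables. MRPL12, the stalk protein that recruits translation factors, was called lower in both lines, with -0.25 and -0.55 in the authors' deposited tables, and its difference of 0.31 did not pass (-0.01 to 0.62; adjusted p = 0.106). MRPS36, the dehydrogenase protein, had 0.19 in Hep3B and -0.30 in Huh7 without a call in the authors' deposited tables, and its difference of 0.49 passed (0.12 to 0.86; adjusted p = 0.0249).

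**Figure D3:**
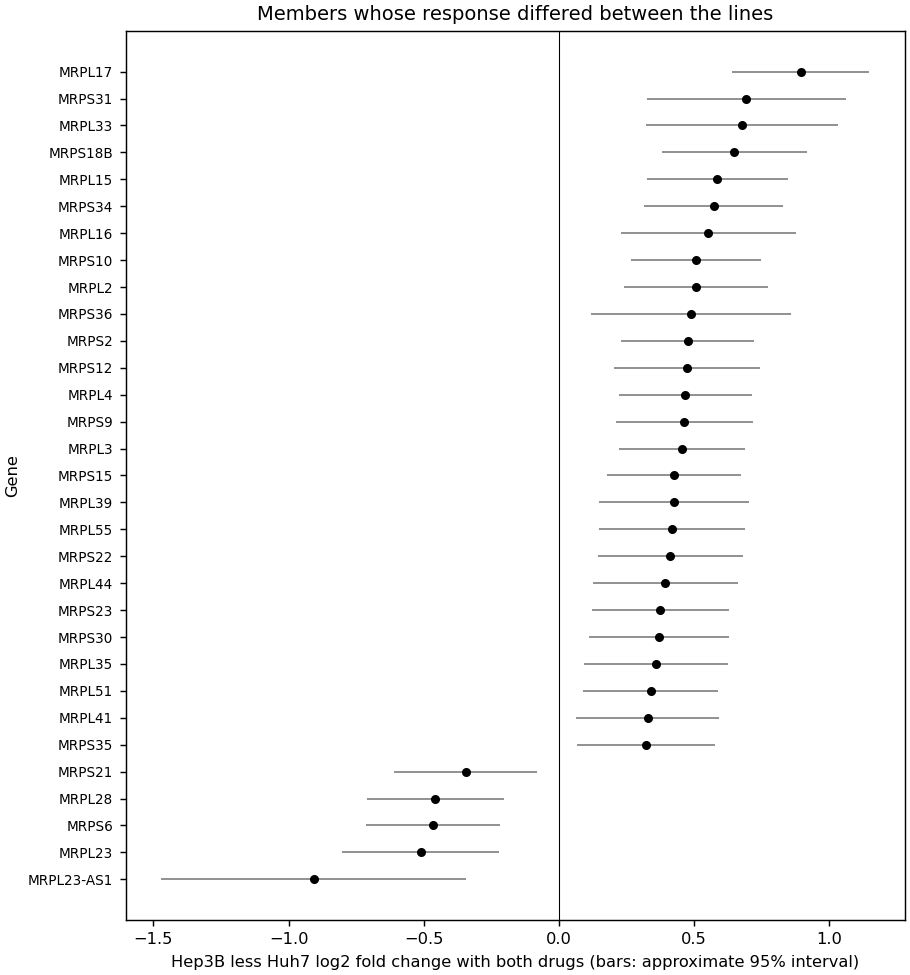
Difference of the both-drug log2 fold changes, Hep3B less Huh7, for the 31 members that passed the approximate test at an adjusted p under 0.05; points are differences and bars approximate 95% intervals. Of these, 26 lie right of 0 and 5 left of it, between 0.89 for MRPL17 and -0.91 for MRPL23-AS1. MRPL23-AS1 was under 2 CPM in Huh7.

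Fewer members were called with a single drug than with both drugs in the same line, as was so for all genes. With GW3965 in Hep3B the authors' deposited table called 0 of 77 members higher and 1 lower by edgeR's FDR, against 7.40% and 3.82% of all genes, and 9 members had an unadjusted p below 0.05, 11.7% beside 25% of all genes. The member called was the antisense RNA MRPL23-AS1, and no protein-coding member was called. Log2 fold changes of the ribosomal proteins ran from -0.18 to 0.10 in the authors' deposited table, with a median approximate SE of 0.06 over all members. The median in the authors' deposited table was -0.05 for the members and 0.0032 for all genes. MRPS18B had 0.03, MRPL12 -0.11, MRPS12 -0.08 and MRPL11 -0.10 in the authors' deposited table.

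With sorafenib in Hep3B the authors' deposited table called 12 of 77 members higher and 14 lower, against 23.6% and 27.9% of all genes. The median log2 fold change was -0.0042 for the members and -0.03 for all genes in the authors' deposited table. MRPS18B, MRPL45, MRPL1 and MRPL15 were the highest protein-coding members, with 0.50, 0.42, 0.42 and 0.41 in the authors' deposited table. MRPL1 forms the stalk that moves as spent transfer RNA leaves. MRPL27 was lowest with -0.57 (SE 0.16; edgeR FDR 0.00204), before MRPL28 with -0.42, MRPS6 with -0.41, MRPL16 with -0.40 and MRPS28 with -0.40, in the authors' deposited table. MRPL12, MRPS12 and MRPL11 had -0.11, -0.07 and -0.24 without a call in the authors' deposited table.

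In the Huh7 group labelled GW3965 the calls ran one way. The authors' deposited table called 0 of 76 members higher and 24 lower by edgeR's FDR, against 13.6% and 17.8% of all genes. A log2 fold change below 0 was listed for 66 of the 76 members, beside 6420 of 11470 genes at that level. An unadjusted p below 0.05 was listed for 36 members, 35 of them lower, in the authors' deposited table, which is 47.4% of the members beside 44.4% of all genes. The median log2 fold change was -0.18 for the members and -0.04 for all genes in the authors' deposited table. MRPS31 was lowest with -0.59 (SE 0.11; edgeR FDR 8.87e-06) and MRPS23, a small-subunit protein, followed with -0.51 (SE 0.10; FDR 3.71e-05), in the authors' deposited table. MRPL3, a large-subunit core protein, had -0.49, MRPL12 -0.48 and MRPL17 -0.45, all called in the authors' deposited table. The group labelled sorafenib gave no call among 76 members by edgeR's FDR in the authors' deposited table, against 2.00% of all genes called higher and 1.32% lower. Its lowest FDR among members was 0.312, and 7 members had an unadjusted p below 0.05, all of them lower, or 9.21% beside 14.0% of all genes, in the authors' deposited table.

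**Figure D4:**
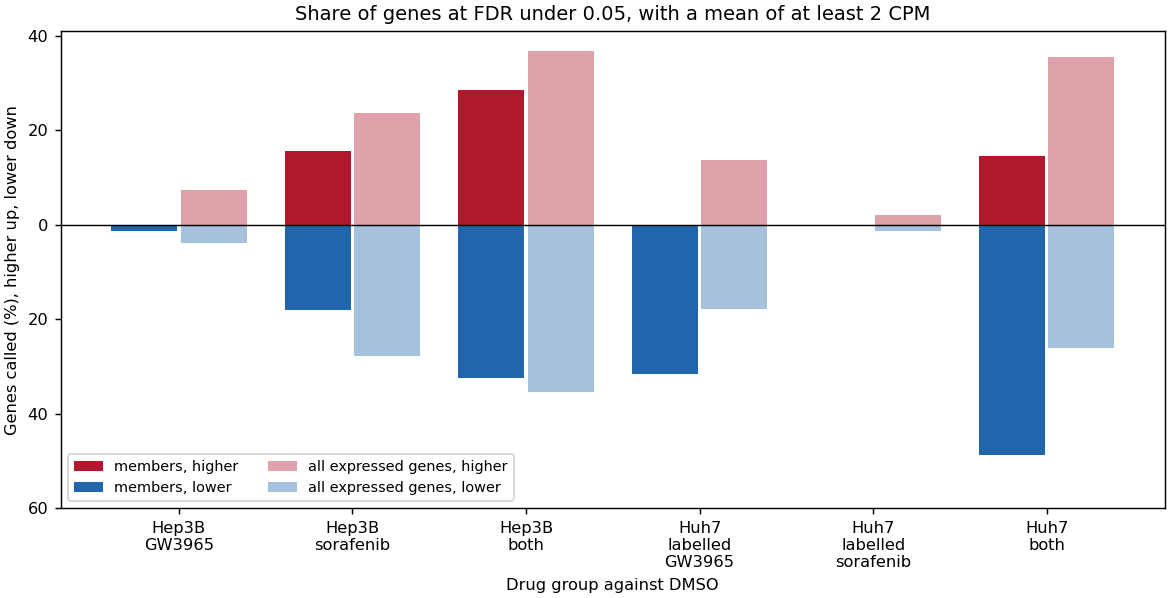
Percent of members (solid bars, left of each pair) and of all expressed genes (pale bars, right) called at FDR under 0.05 in the 6 comparisons of the authors' deposited tables; red bars above 0 are genes called higher and blue bars below 0 genes called lower. In Huh7 the blue members' bars are longer than those of all genes in the group labelled GW3965, at 31.6% of members and 17.8% of all genes, and with both drugs, at 48.7% and 26.1%.

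Sorafenib in Hep3B and the group labelled GW3965 in Huh7 share no libraries, and 7 protein-coding members were called lower in both by the authors' deposited tables, which is 50% of the 14 lower in Hep3B and 29.2% of the 24 lower in Huh7. For all genes these shares were 38.4% and 62.1%, and 9.21% of the protein-coding members and 11.1% of all genes tested were called lower in both, by the authors' deposited tables. The 7 were MRPL13, MRPL16, MRPL17, MRPL18, MRPL27, MRPS7 and MRPS28. Across all 6 comparisons of the authors' deposited tables, 66 of the 76 protein-coding members were called at least once and 10 never were, which is 86.8% of them beside 91.0% of all genes. Those 10 were MRPL9, MRPL21, MRPL24, MRPL34, MRPL36, MRPL38, MRPL46, MRPL52, MRPS18A and MRPS36. Opposite calls in different comparisons were found for 4 protein-coding members, MRPL3, MRPL42, MRPS2 and MRPS9. The share of all genes with opposite calls was not computed, so this count cannot be read as many or few.

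Both drugs were set against each drug with the approximate test, which overstates the error within a line because the comparisons share their DMSO libraries. Against sorafenib in Hep3B, both drugs gave a higher log2 fold change for 7 of 77 members and a lower one for 6, against 16.7% and 14.6% of all genes. MRPS18B was 0.58 higher (95% interval 0.26 to 0.89), MRPS30 0.51 higher (0.24 to 0.79) and MRPL2 0.47 higher (0.17 to 0.77). MRPL23-AS1, MRPL23 and MRPL28 differed by -1.20, -0.72 and -0.46. Against GW3965 in Hep3B, 20 members were higher and 18 lower with both drugs, against 30.8% and 33.2% of all genes, led by MRPS18B with 1.05 and MRPL2 with 0.94, and by MRPL23 with -0.79. MRPL15 was 0.78 higher, and MRPL28 and MRPS28 both differed by -0.78. With errors scaled for the shared DMSO libraries, the counts against sorafenib were 16 higher and 11 lower. The shares of all genes above belong to the unscaled errors, and none were computed with scaled ones.

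In Huh7, both drugs against the group labelled GW3965 gave 7 of 76 members higher and 3 lower, against 20.4% and 9.68% of all genes, whose median difference was 0.11, set beside -0.02 for the members. MRPS18C was 0.44 higher (0.14 to 0.75), MRPL3 0.40 higher (0.15 to 0.65) and MRPS35 0.37 higher (0.09 to 0.64). MRPL16 differed by -0.53, MRPL53 by -0.49 and MRPS14, a small-subunit head protein, by -0.41. Against the group labelled sorafenib, 7 members were higher and 21 lower, against 29.2% and 18.1% of all genes, with MRPL10, MRPS18C and MRPL45 highest at 0.61, 0.50 and 0.49. The lowest were MRPL16 with -0.84, MRPL17 with -0.78 and MRPL12 with -0.58. Scaled errors gave 16 higher and 10 lower members against the group labelled GW3965, and 13 higher and 35 lower against the group labelled sorafenib. Shares of all genes were not computed with scaled errors, so these counts cannot be set beside them.

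The combined response exceeded the sum of the single-drug log2 fold changes for 5 of 77 members in Hep3B and fell short of it for 0, against 10.8% and 11.4% of all genes. An unadjusted p below 0.05 was found for 16 members by the same approximate test. The share of all genes at that unadjusted limit was not computed for the departures in either line. The departure was 0.55 for MRPS18B (95% interval 0.21 to 0.89; adjusted p = 0.0109), 0.54 for MRPL2 and 0.50 for MRPS30, and MRPL3 and MRPS10 had 0.38 each. For MRPS30 the authors' deposited tables gave 0.56 with both drugs, 0.01 with GW3965 and 0.05 with sorafenib, the single drugs without a call. In Huh7 the departure passed above 0 for 3 of 76 members and below 0 for 0, against 15.5% and 5.94% of all genes, and 12 members had an unadjusted p below 0.05 by the approximate test. MRPL3 had 0.48 (0.19 to 0.77; adjusted p = 0.00982), MRPS18C 0.47 and MRPS35 0.44. For MRPL3 the authors' deposited tables listed -0.09 with both drugs, not called, beside -0.49 in the group labelled GW3965. With scaled errors 11 members passed above 0 and 5 below it in Hep3B, and 11 and 1 in Huh7. For these counts too, no shares of all genes were computed.

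Of the 3 relatives of bacterial S18, MRPS18B and MRPS18C were called in the same comparisons and MRPS18A in none. Per kilobase the authors' deposited levels in Hep3B were 48.1 CPM for MRPS18B, 29.3 CPM for MRPS18A and 6.17 CPM for MRPS18C, and in Huh7 21.7, 16.5 and 8.00 CPM in the same order of genes. MRPS18B and MRPS18C were called higher in Hep3B with sorafenib and in both lines with both drugs by the authors' deposited tables. MRPS18A, whose protein sits in the large subunit, had log2 fold changes between -0.08 and 0.08 in the 6 comparisons of the authors' deposited tables and no call. MRPS18C had 0.29 in Hep3B and 0.47 in Huh7 with both drugs in the authors' deposited tables, and the difference of -0.18 did not pass (95% interval -0.48 to 0.12).

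By subunit, both drugs in Hep3B gave 13 higher and 17 lower of 49 large-subunit genes and 9 higher and 7 lower of 26 small-subunit genes in the authors' deposited table. These were 26.5% and 34.7% of the large-subunit genes and 34.6% and 26.9% of the small-subunit genes, against 36.7% and 35.4% of all genes. In Huh7 with both drugs the authors' deposited table gave 5 higher and 25 lower large-subunit genes, and 6 higher and 12 lower small-subunit genes. The shares were 10.2% and 51.0% for the large subunit and 23.1% and 46.2% for the small, against 35.5% and 26.1% of all genes. The Huh7 group labelled GW3965 had 16 of 49 large-subunit and 8 of 26 small-subunit genes called lower in the authors' deposited table. These are 32.7% and 30.8%, against 17.8% of all genes. Among large-subunit genes there, 13 of 29 with a bacterial counterpart and 3 of 20 without one were called lower in the authors' deposited table, 44.8% and 15%, against 17.8% of all genes. In Huh7 given both drugs these counts were 17 of 29 and 8 of 20, 58.6% and 40%, against 26.1% of all genes, again by the authors' deposited table. The difference between the classes was not tested. The median log2 fold changes of large-subunit and small-subunit genes were -0.22 and -0.18 in that authors' deposited table.

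Of the members that are not protein genes, 1 reached the minimum in Hep3B. MRPL23-AS1, an RNA read from the strand opposite MRPL23, had log2 fold changes in Hep3B of -0.65 with both drugs, -0.54 with GW3965 and 0.55 with sorafenib, each called in the authors' deposited tables. Its mean in Huh7 with both drugs was 1.59 CPM in the authors' deposited table, under the minimum, with a log2 fold change of 0.26 and no call. The exons of MRPL23 and MRPL23-AS1 share 85 bases in GENCODE 29, and the sources used here do not say whether counting went by strand, so reads from the shared stretch cannot be told apart. MRPL45P2, a pseudogene of MRPL45, had 1.07 in Hep3B and 0.94 in Huh7 with both drugs, at means of 1.89 and 0.698 CPM in the authors' deposited tables. Its FDR was 3.64e-07 and 0.000769 by edgeR in the authors' deposited tables, but it was under the minimum, and how reads were divided between it and MRPL45 was not tested. MRPL42P5 had means of 0.737 and 0.501 CPM and log2 fold changes of 0.08 and 0.24 in the same comparisons of the authors' deposited tables, without an FDR below 0.05.

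Overlap with other genes touched 32 members by at least 50 exon bases in GENCODE 29, 22 of them on the opposite strand. MRPS18C shares 1296 bases with ABRAXAS1 on the opposite strand, for which no values were found under that name. MRPL43 shares 738 bases with SEMA4G on the opposite strand, which had -0.51 in Hep3B and -0.58 in Huh7 with both drugs. MRPL51 shares 463 bases with NCAPD2, a condensin gene on the opposite strand that had -0.48 in both lines with both drugs in the authors' deposited tables. MRPL28 shares 223 bases with TMEM8A on the same strand, which had -0.73 in Hep3B and -0.07 in Huh7 in the authors' deposited tables, the second without a call. MRPS6 shares 176 bases with SLC5A3, an inositol transporter gene that had -0.55 and -0.32 in the authors' deposited tables of both drugs. MRPL2 shares 92 bases with KLC4 on the opposite strand, which had 0.06 without a call in Hep3B and 0.78 in Huh7 in the authors' deposited tables. MRPS12 shares 349 bases with SARS2, which had -0.23 in Hep3B and -0.02 without a call in Huh7 in the authors' deposited tables. The part of shared exons in the members' values was not tested.

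Transcripts of members were short, with a median of 1370 bases among the members tested in Hep3B, against 3049 for all genes tested with both drugs. Members called higher with both drugs had a median of 1582 bases and those called lower 1182 in Hep3B, and 1588 and 1199 bases in Huh7. Members without a call were shorter than either, with medians of 1094.5 bases in Hep3B and 1133.5 in Huh7. GC content was near that of all genes, 49.6% for members and 49.0% for all genes tested in Hep3B with both drugs. In the Huh7 group labelled sorafenib the rank correlation of log2 fold change with GC content was 0.52 over 76 members and 0.39 over 10986 genes, all points coming from the same libraries. In the other comparisons it lay between -0.22 and -0.0043 for the members. The part of length and GC content in the calls was not tested. Where a member had several transcripts in the tables, as 22 did, their log2 fold changes in the authors' deposited tables lay within 0.05 of each other for 19 to 21 of the 22, and the widest spread was 0.21.

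Other genes of mitochondrial gene expression, in 5 lists, are read against the 36.7% higher and 35.4% lower of all genes with both drugs in Hep3B and the 35.5% and 26.1% in Huh7 given above. Subunits of the mitochondrial ribosome with other names were called in both directions. The authors' deposited tables of both drugs called 2 of 7 higher and 3 lower in Hep3B, and 2 higher and 4 lower in Huh7. ICT1, a peptide release factor that is also a ribosomal subunit, had 1.00 and 0.31 in Hep3B and Huh7, and PTCD3, a subunit that binds RNA, had -0.52 and -0.58 in the authors' deposited tables. Assembly factors of the ribosome were called higher for 10 and lower for 6 of 26 in Hep3B, and for 7 and 5 of 25 in Huh7, by the authors' deposited tables of both drugs. The GTPase NOA1 had 1.00 and 0.59 and the pseudouridine synthase TRUB2 -0.39 and -0.62 in these authors' deposited tables.

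Of 17 translation factors, 7 were called higher and 3 lower in Hep3B with both drugs, and 4 and 4 in Huh7, by the authors' deposited tables. The initiation factor gene MTIF2 had 1.08 and 0.58, and the elongation factor gene TSFM -0.38 and -0.57, in the authors' deposited tables of both drugs. LRPPRC and SLIRP, whose proteins form a complex that stabilises mitochondrial messenger RNA, had opposite calls, with 0.25 and 0.63 for LRPPRC and -0.55 and -0.63 for SLIRP in Hep3B and Huh7, in the authors' deposited tables. Of 15 genes of mitochondrial transcription and RNA processing, the authors' deposited tables of both drugs called 7 higher and 7 lower in Hep3B, and 2 higher and 7 lower in Huh7. TFAM, which packages mitochondrial DNA and takes part in its transcription, had -0.48 and -0.49, all called in the authors' deposited tables. POLG, the mitochondrial DNA polymerase, had -0.81 and 0.39, also called there.

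Nuclear regulators of mitochondrial genes were called higher for 9 of 11 and lower for 1 in Hep3B with both drugs, and for 5 and 2 of 12 in Huh7, by the authors' deposited tables. DDIT3 and ATF4, factors of the integrated stress response, had 2.75 and 1.25 in Hep3B and 2.88 and 1.21 in Huh7 in the authors' deposited tables of both drugs. MYC had 1.44 and 1.71, and the coactivator PPARGC1A 1.29 and 1.60, in the same authors' deposited tables. GABPA, a subunit of the ETS factor GABP, had -0.35 and -0.22, both called in the authors' deposited tables. ATF5, a factor of the mitochondrial stress response, had 0.90 in Hep3B and -0.98 in Huh7 in the authors' deposited tables.

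The single-drug calls in these lists stand beside 7.40% higher and 3.82% lower of all genes with GW3965 in Hep3B, 23.6% and 27.9% with sorafenib, 13.6% and 17.8% in the Huh7 group labelled GW3965, and 2.00% and 1.32% in that labelled sorafenib. With GW3965 in Hep3B the authors' deposited table called 1 assembly factor, the RNA methyltransferase NSUN4 with 0.20, and 1 regulator, ATF4 with 0.38, both higher, and no gene of the other 3 lists. With sorafenib in Hep3B, 9 of 15 genes of mitochondrial transcription and RNA processing were called lower and 1 higher in the authors' deposited table. The higher one was the RNA helicase gene SUPV3L1 with 0.70, while the RNA-processing genes KIAA0391 and ELAC2 had -0.64 and -0.61 in the authors' deposited table. The other calls with sorafenib in Hep3B were 5 higher and 4 lower assembly factors, 4 and 2 translation factors, 4 and 2 regulators, and 1 and 1 of the subunits with other names, by the authors' deposited table. In the Huh7 group labelled GW3965 the authors' deposited table called 0 higher and 7 lower of the transcription and processing genes, 0 and 5 of the assembly factors, 1 and 5 of the translation factors, 3 and 3 of the regulators, and 0 and 1 of the other subunits. TFAM had -0.48 with sorafenib in Hep3B and -0.47 in that Huh7 group, both called in the authors' deposited tables. In the Huh7 group labelled sorafenib, ATF4 with 0.52 and MYC with 0.33 were the genes called in these lists by the authors' deposited table.

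**Figure D5:**
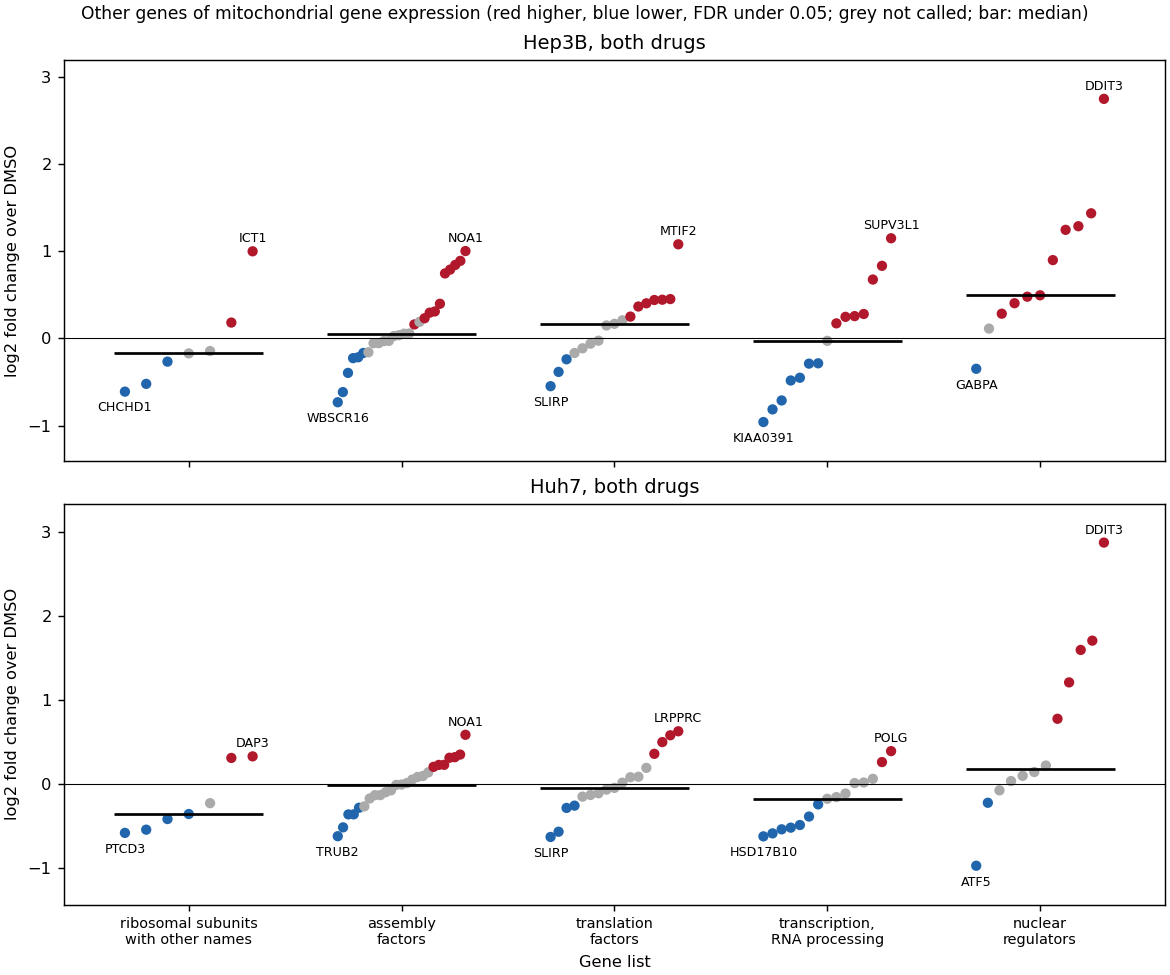
Log2 fold changes of both drugs over DMSO from the authors' deposited tables for 5 lists of other genes of mitochondrial gene expression, Hep3B above and Huh7 below; each point is a gene with a mean of at least 2 CPM, red where called higher, blue where called lower and grey where not called, and bars are medians. Each list holds red and blue points in both lines, from 2.75 for DDIT3 in Hep3B and 2.88 in Huh7 to -0.96 for KIAA0391 in Hep3B and -0.98 for ATF5 in Huh7.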

How the data were processed

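Poly-A RNA-seq libraries, 70 in 8 groups taken from the labels, were compared by the authors. EdgeR (version not given) and the builds hg19 and GRCh37 appear in the submitters' processing notes. Alignment, counting, strand setting and normalization remain not given in the sources used here. For each of 32321 transcripts the authors deposited log2 values, namely a mean CPM and a fold change, per the file headers. A p-value and its FDR were also deposited. The FDR was checked to be a Benjamini-Hochberg adjustment over all of them, and the fold to run drug over DMSO, since the DMSO levels implied by different tables of a line then differed with an SD of 0.00846 (Hep3B) and 0.0134 (Huh7), against 0.343 and 0.272 with the reverse reading. Samples were not mapped to columns, because no values of single libraries were used.

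Calls used the deposited FDR under 0.05 at a mean of at least 2 CPM. For differences, the minimum applied to the mean log2 CPM over the comparisons of the contrast. Differences of log2 fold changes, 7 contrasts, were tested approximately: the error was the size of the fold change over the normal score of its p-value, raised to at least the median of genes at like expression (20 bins), and set to it at p above 0.5; 2-sided normal p-values were adjusted by Benjamini-Hochberg over all genes. The test was first tried on simulated data for the contrast between the lines only. The contrasts that share DMSO libraries were not simulated. Genes named are the 5 highest and 5 lowest called members of each comparison, the 3 highest and lowest of each contrast, up to 4 of each list, and MRPL11, MRPL12, MRPS12, the MRPS18 paralogs and the non-protein members; others, such as MRPS30 beside its single-drug values, and the overlapping genes, were chosen after their values were seen. The members, lists and rules were chosen with earlier results of these data known. Scripts used Python 3.11.15, pandas 2.3.3, NumPy 2.4.6, SciPy 1.17.1 and matplotlib 3.10.9. Promoters came from a RefSeq table on GRCh38.p14, and lengths, GC content and overlaps from GENCODE 29, used for names and sequence only since the authors' build differs.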

Additional observations from a re-analysis of the deposited data

Results flagged for a closer look

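The response to both drugs differed between the lines for 31 members, of which 8 are listed here: the 3 highest, the 3 lowest, and MRPS18B and MRPS12 among the genes named in every comparison. The test was the approximate one of Hep3B less Huh7 (log2), with p-values adjusted over all genes. The difference was 0.89 for MRPL17, 0.69 for MRPS31, 0.68 for MRPL33, 0.65 for MRPS18B and 0.47 for MRPS12. It was -0.91 for MRPL23-AS1, -0.51 for MRPL23 and -0.47 for MRPS6. MRPL23-AS1 had a mean of 7.24 CPM in Hep3B and 1.59 CPM in Huh7 in the authors' deposited tables, the second under the minimum of 2 CPM. It was tested because the minimum applied to the mean log2 CPM over both lines. Its exons share 85 bases with MRPL23. The part of these shared bases in the difference was not tested.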

How the results depend on the processing

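No paired analysis was possible because the tables hold no values of single libraries; the replicate block and leaving out each replicate were not run for the same reason. Of 70 recomputed counts of members called, 55 stayed within 1.5 times in total and in each direction, and 15 did not in at least 1 of these. At an FDR of 0.01 the counts were 16 (9 higher, 7 lower) for Hep3B sorafenib, 9 (0 and 9) for Huh7 labelled GW3965 and 38 (5 and 33) for Huh7 both drugs. Without the antisense RNA and pseudogenes, an alternative chosen after seeing the data, Hep3B GW3965 gave 0 by edgeR, with 8 at an unadjusted p below 0.05. For the approximate test at an adjusted p of 0.01, the counts were 6 (4 and 2) for Hep3B both drugs against sorafenib, 1 (1 and 0) for Huh7 both drugs against labelled GW3965, and 1 (1 and 0) for the departure from additivity in each line. With errors scaled for the shared DMSO group the counts were 27 (16 and 11) for Hep3B both drugs against sorafenib, 26 (16 and 10) and 48 (13 and 35) for Huh7 both drugs against labelled GW3965 and labelled sorafenib, and 16 (11 and 5) and 12 (11 and 1) for the departures in Hep3B and Huh7. The Hep3B departure gave 8 (7 and 1) with no floor on the error and 6 (5 and 1) with no minimum on expression. The cause of these shifts was not tested beyond what each alternative changes by construction. Shares of all genes were not recomputed under the alternatives. Of 612 values of single genes recomputed, 592 kept their side of the threshold, 15 lost a call and 5 gained one. No gene with a call changed sign, and sign changes of genes without a call were not counted. Limits: the error of a difference is derived from p-values, not from replicates; depth is unknown.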
